A study of Mus musculus with 4 samples.

Results

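The promoters described here belong to protein-coding genes with few CpG dinucleotides around the gene start that were nevertheless open in naive CD8 T cells. Members were genes of the GENCODE vM21 annotation on chromosomes 1 to 19 (mm10) with fewer than 15 CpG within 500 bp of the gene's 5' end and a DNase-seq peak overlapping that window in at least 3 of 4 libraries. Of 20807 coding 5' ends, 5814 were CpG-poor by this rule, and 268 of these (4.61%) were open. Peak calls chose the members, so the number of calls and the CpG count are descriptions of the choice and were not tested. The 4 libraries were DNase-seq of naive resting alpha-beta CD8 T cells, isolated as primary cells from female B6CASTF1/J mice (a hybrid strain) aged 2 months, with no treatment or second group. The labels give a separate biosample for each library but 1 donor identifier for all, so the spread between libraries may be partly technical.

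DNase-seq cuts chromatin with DNase I and maps the cuts. A peak is a stretch with many cuts, where DNA is not wrapped tightly, and a footprint is a short protected gap inside such a stretch that a bound protein can leave. Many mammalian promoters lie in CpG islands and are open in most cell types, whereas CpG-poor promoters more often belong to genes used in particular tissues. Naive CD8 T cells are resting precursors of cytotoxic cells that circulate between blood and lymph nodes and recognise peptides on MHC class I.

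The libraries differed in depth and in which marker genes had a peak. From replicate 1 to replicate 4 the longer of the deposited lists had 69413, 70552, 51121 and 20647 peaks, and the step of the height scale corresponded to 108.7, 62.9, 91.5 and 24.3 M mapped tags. Replicate 4 was the shallowest. At the CD8 lineage genes, Cd8b1 and Runx3 had peaks in every library, whereas Cd8a had one only in replicates 1 and 2. Promoter heights summed over 10 B cell markers were 0.956, 1.17, 3.27 and 3.32 in replicates 1 to 4, on the relative scale defined below, and those over 12 T cell markers were 5.90, 5.01, 4.24 and 2.32. Of these B cell markers 5, 4, 8 and 5 had a peak, with Fcer2a among those at no peak in any library, and of the T cell markers 10, 10, 8 and 3 had one, with Cd28 and Trat1 at none. Replicates 3 and 4 thus lacked the Cd8a peak of replicates 1 and 2, where its relative height was low (0.493 and 0.362). Nor did they have a peak at Cd3d or Cd2, which stood between 0.211 and 0.366 in replicates 1 and 2. Of the helper lineage genes, Zbtb7b had a peak only in replicate 3 (0.290), and Cd4 had none in any library. Replicate 4 also had no peak at Cd3e, Cd3g or Zap70, which had one in replicates 1 to 3. Whether these missing peaks go with depth or with cell identity was not tested. The part of replicates 3 and 4 in the results was not tested, and counts are also given for replicates 1 and 2 alone.

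The sequences of 8 members are shown first, to give the footprints of promoters with little CpG. No bound factor was assigned to them. In replicate 1 the nearest peaks were centred from -123.5 bp (Ccr7) to 50.5 bp (Themis) of the 5' end, and at Prf1 no peak covered it. Each runs from 160 bases before to 20 bases after the 5' end, on the gene's strand, from the RefSeq GRCm38.p6 assembly (the same build as mm10). Capitals mark bases inside a footprint of at least 2 libraries.
Ccr7 (chr11:99155057-99155237, minus strand): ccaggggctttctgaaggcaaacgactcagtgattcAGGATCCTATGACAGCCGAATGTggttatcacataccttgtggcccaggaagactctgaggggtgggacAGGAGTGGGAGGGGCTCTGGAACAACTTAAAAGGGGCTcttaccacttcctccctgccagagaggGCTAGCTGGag
Ptpn7 (chr1:135132540-135132720, plus strand): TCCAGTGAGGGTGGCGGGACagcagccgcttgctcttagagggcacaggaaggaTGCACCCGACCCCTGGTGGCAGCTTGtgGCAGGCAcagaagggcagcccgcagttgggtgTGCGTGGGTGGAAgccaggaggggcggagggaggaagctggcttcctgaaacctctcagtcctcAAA
Gimap8 (chr6:48647074-48647254, plus strand): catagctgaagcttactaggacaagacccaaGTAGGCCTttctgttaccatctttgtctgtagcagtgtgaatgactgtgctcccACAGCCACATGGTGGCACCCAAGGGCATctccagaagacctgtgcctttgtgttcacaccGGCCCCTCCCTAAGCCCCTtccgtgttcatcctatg
Prf1 (chr10:61297673-61297853, plus strand): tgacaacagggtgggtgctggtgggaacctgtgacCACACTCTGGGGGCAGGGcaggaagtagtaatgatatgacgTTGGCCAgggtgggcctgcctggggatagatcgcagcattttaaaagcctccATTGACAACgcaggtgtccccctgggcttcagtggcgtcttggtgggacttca
Cd3g (chr9:44980411-44980591, minus strand): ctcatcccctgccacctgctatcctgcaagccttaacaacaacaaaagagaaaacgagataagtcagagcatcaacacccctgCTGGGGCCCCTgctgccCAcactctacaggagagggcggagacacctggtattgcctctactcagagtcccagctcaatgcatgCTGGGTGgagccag
H2-Eb1 (chr17:34305707-34305887, plus strand): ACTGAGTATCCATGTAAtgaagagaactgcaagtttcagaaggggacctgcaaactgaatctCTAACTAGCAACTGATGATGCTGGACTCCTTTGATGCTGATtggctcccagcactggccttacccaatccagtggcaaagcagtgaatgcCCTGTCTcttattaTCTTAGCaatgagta
Themis (chr10:28668200-28668380, plus strand): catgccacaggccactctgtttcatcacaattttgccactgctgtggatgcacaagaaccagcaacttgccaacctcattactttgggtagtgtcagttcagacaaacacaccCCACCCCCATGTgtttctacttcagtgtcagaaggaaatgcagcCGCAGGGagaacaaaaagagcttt
Cd52 (chr4:134095062-134095242, minus strand): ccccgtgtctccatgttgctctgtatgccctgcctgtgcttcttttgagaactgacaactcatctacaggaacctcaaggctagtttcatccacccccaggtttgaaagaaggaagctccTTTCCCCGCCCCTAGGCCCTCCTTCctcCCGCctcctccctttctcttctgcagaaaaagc
The stretch shown held 2 CpG at Ccr7, 6 at Ptpn7, 2 at Gimap8, 4 at Prf1, 2 at Cd3g, 0 at H2-Eb1, 1 at Themis and 3 at Cd52. Footprints covered between 19 bases (Themis) and 72 bases (H2-Eb1) of the 181 shown.

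Openness went with CpG count across all coding promoters. The share of promoters that were open was 1.38% at 0 to 4 CpG, 4.28% at 5 to 9 and 8.87% at 10 to 14, against 14.05% at 15 to 19, 28.0% at 20 to 29, 62.6% at 30 to 49 and 82.6% at 50 or more. In all, 4.61% of CpG-poor, 67.3% of CpG-rich (15 or more CpG) and 49.7% of all coding promoters were open. Single libraries called 6.07%, 5.99%, 5.14% and 1.08% of the CpG-poor promoters. The limit of 15 lies within a gradient: 27 of 279 promoters with 14 CpG were open, and 30 of 292 with 15 CpG. Just inside the limit, Ptpn7 (14 CpG) had a mean relative height of 1.73, and just outside it Tpp1 (15 CpG), a lysosomal peptidase, had 1.84.

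**Figure D1:**
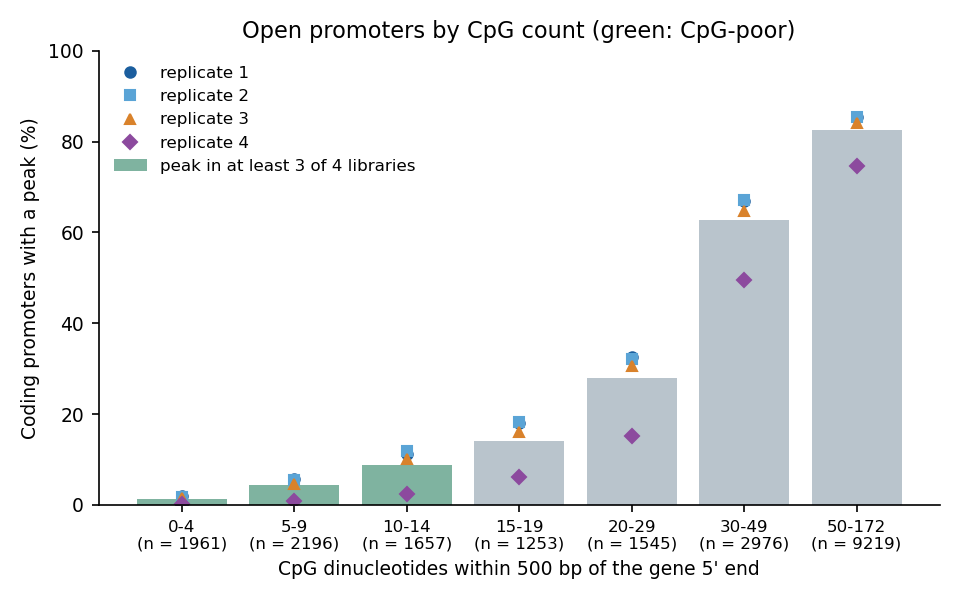
Share of coding promoters with a peak (y axis, percent) by CpG count within 500 bp of the 5' end (x axis); bars show promoters with a peak in at least 3 of 4 libraries, green bars the CpG-poor ones, and symbols the share in each library. The bars go from 1.38% at 0 to 4 CpG to 82.6% at 50 or more, and replicate 4 lies below the other libraries in every class.

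Of the 268 members, 60 were called in all 4 libraries, 206 in replicates 1 to 3 but not in replicate 4, and 2 (Ncf1 and Gm49392) in all but replicate 2. Beyond the rule, 52 CpG-poor promoters were called in 2 libraries, 95 in 1 and 5399 in none. The highest of those called in 2 libraries was Ell2, an elongation factor gene, which reached a relative height of 1.04 in replicate 3 and 1.25 in replicate 4 and had no peak in replicates 1 and 2. Replicates 1 and 2 together called 305 CpG-poor promoters. The deposited cut-rate intervals list stretches with more cuts than background at a false discovery rate below 0.05. In each library, 100% of the members with a peak also had such an interval within 500 bp of the 5' end. The intervals come from the same library as the peaks, so they are no independent check of the calls. Of the 206 members missing from replicate 4, 4 (1.94%) had an interval in that library. The same held for 4 of the 5399 CpG-poor promoters without any peak (0.0741%) and 130 of 1455 CpG-rich promoters missing only there (8.93%). In replicate 1, 35 of the 5399 promoters without a peak (0.648%) had an interval.

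Peak height (the deposited signal) was expressed relative to the median of the same library over 17134 sites with a peak in every library, so a relative height of 1 is the level of a typical shared site. Members were low on this scale. In a bulk sample, a promoter open in fewer cells and one cut less in each cell cannot be told apart. Their median relative height was 0.340, 0.293, 0.336 and 0.649 in replicates 1 to 4, over the 268, 266, 268 and 62 members with a peak. Open CpG-rich promoters had medians of 1.33, 1.30, 1.45 and 1.63. The difference in log2 median height was -1.89 ± 0.38 (SD, n = 4 libraries), and it was negative in every library. Without replicate 1, 2 or 3, when replicate 4 had to call every member, it was -1.15, -1.12 and -1.06, over 60 to 62 members. An exact two-sided sign-flip permutation test over libraries gave p = 0.125, which is the smallest value that 4 libraries allow. Both groups passed the same peak calls, and replicate 4 shows only its 62 higher members, as the median of members called in all 4 libraries was 0.762 against 0.277 for those called in 3. Only 25 members (9.33%) exceeded a relative height of 1 in replicate 1, compared with 62.0% of open CpG-rich promoters. Members also varied more between libraries. Their median coefficient of variation over replicates 1 to 3 was 19.9% (266 members), against 13.1% (10036 CpG-rich promoters). The groups were not matched for height here, and whether the wider spread goes with the lower height of members was not tested.

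Summed peak width was smaller at members, and the nearest peak lay a little farther from the annotated start. The width was summed over the full length of every peak overlapping the window, so it mixes the number of peaks with their width. Its median was 233.5, 200, 240 and 173.5 bp in replicates 1 to 4, against 299, 275.5, 300 and 260 bp at open CpG-rich promoters. The difference was -71.9 ± 11.7 bp (SD, n = 4, exact sign-flip permutation p = 0.125, adjusted 0.15). It was -31.8 bp when peaks had to lie within 250 bp and -135 bp within 1 kb. The width of single peaks was not compared. The centre of the nearest peak was 71.5, 74.5, 92 and 91.75 bp from the 5' end at members and 63.5, 56.5, 70.5 and 60.5 bp at CpG-rich promoters (19.7 ± 9.6 bp farther, n = 4, exact p = 0.125). In replicate 1 a peak covered the 5' end itself at 178 members (66.4%) and at 75.5% of CpG-rich promoters. In replicates 1 to 3, peaks were most frequent in the 50 bp just before the 5' end, covering 67.7%, 62.7% and 58.7% of bases there, and in the bin 500 to 451 bp before it they covered 8.81%, 7.18% and 6.31%. RefSeq gives a gene start within 500 bp of the GENCODE 5' end for 196 of 256 matched members (76.6%), for 62.4% of unopened CpG-poor genes and for 87.6% of open CpG-rich genes. For 26 of the 256 (10.2%) these starts lie over 5 kb apart, and among the members named here they include Smyd1 (59952 bp), Icos (17154), Ccl4 (13960), Pik3ip1 (11160), Spn (7729), Ckm (6318) and H2-Ab1 (5538), as well as Gbp8 (85931), Gbp9 (29182) and Olfr15 (8097).

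**Figure D2:**
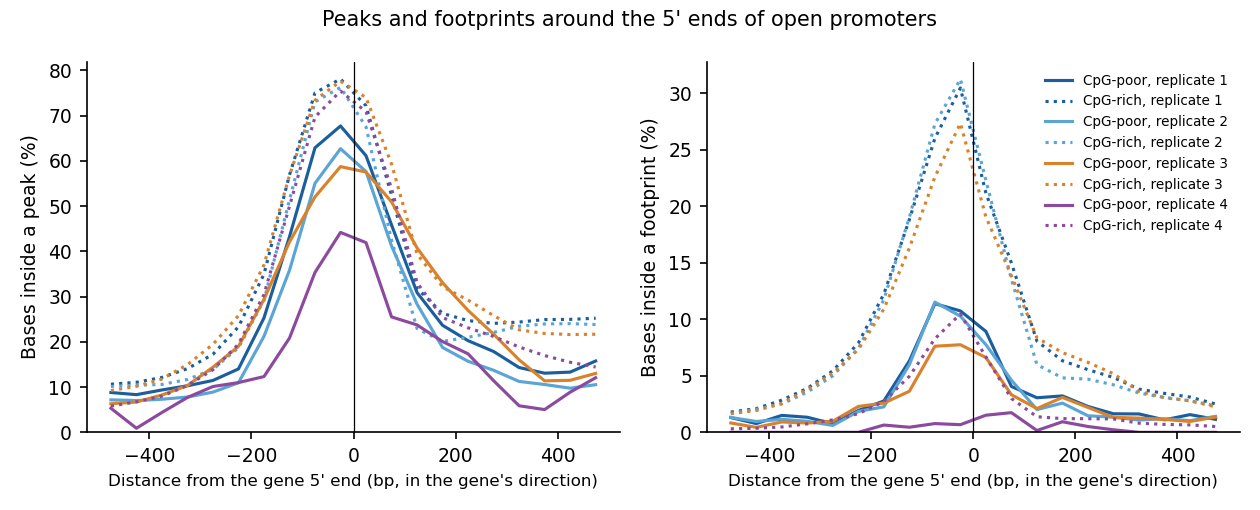
Share of bases inside a peak (left, percent) and inside a footprint (right, percent) by distance from the gene 5' end in bp, averaged over promoters with a peak in that library; solid lines are open CpG-poor and dotted lines open CpG-rich promoters, coloured by library. In replicate 1 member peaks reach 67.7% of bases just before the 5' end, below the 78.1% of CpG-rich promoters, and in the same 50 bp member footprints cover 10.7% of bases against 30.5%.

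Footprints were found in most member peaks of the 3 deeper libraries. At least 1 footprint lay in a peak at 248 of 268 members in replicate 1 (92.5%), 237 of 266 in replicate 2 (89.1%), 215 of 268 in replicate 3 (80.2%) and 19 of 62 in replicate 4 (30.6%). The corresponding shares at open CpG-rich promoters were 97.7%, 96.9%, 96.9% and 80.9%. The share was lower at members in every library (difference -20.0 ± 20.8 percentage points, SD, n = 4, exact sign-flip permutation p = 0.125), and -9.67 points without replicate 4, which sets much of the mean. Per kb of peak there were 10.1, 10.4, 8.24 and 2.14 footprints at members and 13.7, 13.4, 13.9 and 7.0 at CpG-rich promoters (difference -4.27 ± 1.20, n = 4, exact p = 0.125). Member peaks held 742, 631, 611 and 24 separate footprints.

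Much of this gap went with height. When CpG-rich promoters were weighted to 4 equal-sized classes of member height, the difference in footprint share was 0.173, 0.377, -5.46 and -14.8 percentage points in replicates 1 to 4 (mean -4.92 ± 7.10, exact permutation p = 0.5; -1.47 without replicate 4, -7.62 without replicate 2, and 0.857 in replicates 1 and 2 only), so replicates 1 and 2 gave differences below 1 point while replicates 3 and 4 gave fewer at members. In replicate 1, footprints lay at 75.8% of members in the lowest class and at 77.7% of CpG-rich promoters of that height. In the highest class the shares were 100% and 99.9%. That class has no upper limit, and CpG-rich promoters in it are taller.

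**Figure D3:**
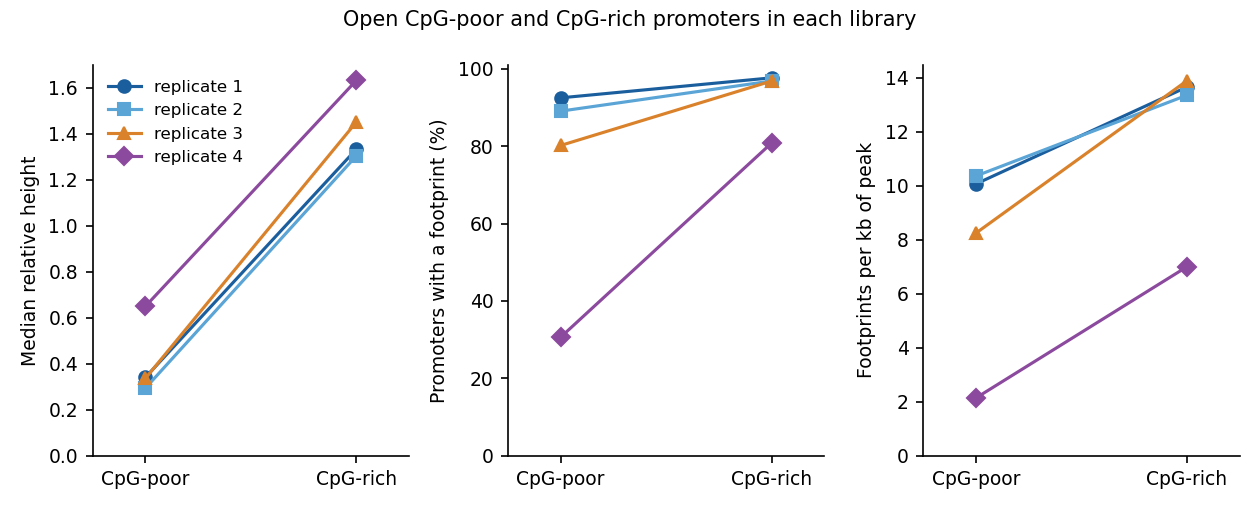
Median relative peak height, share of promoters with a footprint (percent) and footprints per kb of peak (y axes) at open CpG-poor and open CpG-rich promoters (x axis), with 1 line for each library. Every line rises from CpG-poor to CpG-rich, and the footprint share of members drops from 92.5% in replicate 1 to 30.6% in replicate 4.

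The highest members included lymphocyte genes and genes with a CpG-rich start of another gene close by. Ptpn7, a phosphatase of haematopoietic cells, stood at 1.82, 2.05, 1.56 and 1.49 (replicates 1 to 4, mean 1.73 ± 0.26, SD, n = 4) with 7, 5, 8 and 2 footprints. Ccr7, the receptor that guides naive T cells into lymph nodes, had 2.01, 1.79, 1.45 and 1.46 (1.68 ± 0.27) with 7, 5, 12 and 0 footprints. Both stood above the typical shared site in every library, and for both replicates 3 and 4 were the lower ones. Scgb1c1, a secretoglobin gene, had the highest mean, 1.74 ± 0.25, but a CpG-rich start of another gene, C330022C24Rik, lies within 1 kb. Smyd1, a muscle methyltransferase gene, had 1.11, 1.42, 1.02 and 0.596, the same values as Cd8b1, whose CpG-rich start lies within 1 kb, so the 2 genes share 1 peak. Pik3ip1, an inhibitor of PI3 kinase signalling, and Tbc1d10c, a Ras and calcineurin inhibitor, likewise lay within 1 kb of CpG-rich starts, of Gm12592 and Ppp1ca. Such a neighbour was present at 13 members (4.85%) and at 0.889% of CpG-poor promoters without any peak. Separately, 41 members had another annotated start of their own gene that was CpG-rich, more than 1 kb away and open in at least 3 of 4 libraries. The matching share at other CpG-poor promoters was not counted. Another coding gene started within 500 bp at 24 members, and 17 members shared a peak with another member.

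Other high members had no such neighbour. Gimap8, a GTPase of the GIMAP family that acts in lymphocyte survival, had 1.37, 1.75, 1.19 and 1.16. Prf1, the pore-forming perforin of cytotoxic granules, had 1.45, 1.50, 0.976 and 0.965, with the 2 lower values in replicates 3 and 4. Ptpn22, a phosphatase that restrains T cell receptor signalling, had 1.46, 1.36, 0.922 and 0.772, again lower in replicates 3 and 4. S1pr4, a sphingosine 1-phosphate receptor of lymphocytes, was even across libraries at 1.13, 1.06, 0.980 and 1.14, with its peak centred 401.5 bp into the gene in replicate 1. Traf3ip3, an adaptor needed in lymphocyte development, had 1.17, 0.908, 1.41 and 1.28. The mean relative heights of Abcb8, a mitochondrial transporter gene, and Trim69 were 1.29 ± 0.09 and 1.17 ± 0.20 (SD, n = 4).

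**Figure D4:**
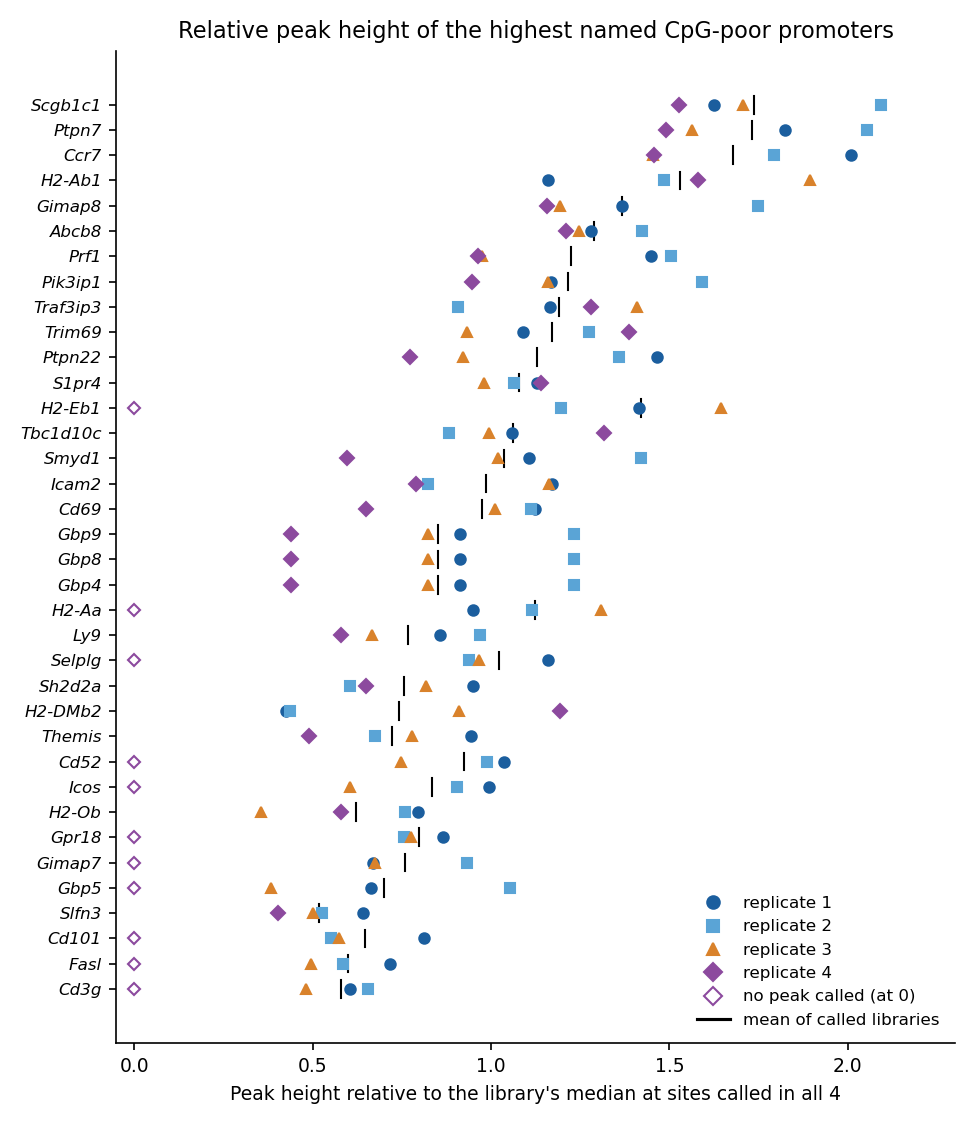
Relative peak height (x axis) of the 36 highest named members (y axis) in each library, with a black bar at the mean of the libraries with a peak and open diamonds at 0 where replicate 4 had none. Ptpn7 and Ccr7 lie above 1.45 in every library, H2-Eb1 and H2-Aa are high in replicates 1 to 3 but have no peak in replicate 4, and H2-DMb2 is highest in replicates 3 and 4.

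Grouped by role, adhesion, GIMAP, interferon-response and MHC class II genes had the largest shares of open CpG-poor promoters. T cell receptor signalling and receptor genes came next. Lists of liver, red cell, muscle and skin genes had 0 or 1 open promoter, which is near the overall share for lists of their size. These shares are read against the 4.61% of all CpG-poor promoters and rest on 16 lists that were not independent of earlier results. Of the members, 82 were in a list and 186 in none. Members in a list had median relative heights of 0.420, 0.354, 0.387 and 0.579 in replicates 1 to 4. Those in no list had 0.301, 0.271, 0.324 and 0.719, so the order in replicate 4 was the opposite of that in the other libraries. The medians of replicate 4 cover only the 62 members with a peak there, a smaller and different set. Of the members called in all 4 libraries, 23 were in a list and 37 in none.

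Among adhesion and homing molecules, 10 of 11 CpG-poor promoters were open (90.9%), and all 11 were called in both replicates 1 and 2. Icam2, a ligand for the integrin LFA-1, had 1.17, 0.825, 1.16 and 0.789. Selplg, the selectin ligand PSGL-1, had 1.16, 0.940 and 0.966 in replicates 1 to 3 and no peak in replicate 4. Cd52 (a small surface glycoprotein of lymphocytes) and Spn (CD43, a surface sialoglycoprotein) had means of 0.924 ± 0.154 and 0.540 ± 0.147 over replicates 1 to 3. Only Icam2 of this list was called in all 4 libraries.

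Of the T cell receptor and proximal signalling genes, 8 of 14 CpG-poor promoters were open (57.1%), 10 of 14 in replicates 1 and 2 alone. Themis, needed for thymocyte selection, had 0.943, 0.675, 0.778 and 0.491 with only 6 CpG. Sh2d2a, the T cell adaptor TSAd, had 0.949, 0.606, 0.819 and 0.649. Cd3g, the gamma chain of the CD3 complex, had 0.606, 0.655 and 0.481 and no peak in replicate 4, and Txk, a Tec family kinase, had 0.694, 0.443 and 0.594. No library had a peak at Cd28, Sla or Trat1. The mean of each lay below that of Ptpn22, the highest of the list, and only Ptpn22, Sh2d2a and Themis were called in all 4 libraries.

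Among cytokine and chemokine receptors, 8 of 15 were open (53.3%), and 11 in replicates 1 and 2 alone. Below Ccr7 and S1pr4 came Gpr18, a lymphocyte G protein-coupled receptor, at 0.866, 0.757 and 0.775 in replicates 1 to 3. Il7r, the receptor chain for the survival cytokine IL-7, had 0.518, 0.319 and 0.392, with its peak centred 305.5 bp into the gene in replicate 1. Ccr2, Ccr6, Ccr8 and Cxcr5, receptors used by other or activated leukocytes, had no peak in any library. Of costimulation and checkpoint receptors, 7 of 12 were open (58.3%). Cd69, which retains lymphocytes in tissue, had 1.12, 1.11, 1.01 and 0.649, and Icos, a costimulatory receptor, had 0.996, 0.904 and 0.604 in replicates 1 to 3. Among receptors best known from activated or exhausted cells, Tigit had 0.551, 0.357 and 0.355, Cd101 0.813, 0.551 and 0.573 (both without a peak in replicate 4) and Tnfrsf18 0.326, 0.294, 0.444 and 0.439, whereas Lag3, Havcr2 and Cd160 had no peak in any library.

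Of 41 CpG-poor genes for cytotoxic effectors and NK receptors, 6 were open (14.6%). Besides Prf1 these included Fasl, the death ligand, at 0.718, 0.585 and 0.495, and Gzmb, granzyme B, at 0.282, 0.236 and 0.174, in replicates 1 to 3. Prf1 thus stood about as high as Gimap8, while Gzmb had a peak of low height and most granzyme, Klra and Klrb genes had none. Among cytokines 2 of 12 were open, Tnfsf10 and Csf2, and Csf2 (GM-CSF) was low at 0.130, 0.109 and 0.143.

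Of interferon-stimulated genes, 20 of 30 CpG-poor promoters were open (66.7%), and 22 in replicates 1 and 2 alone. They include guanylate-binding proteins, Slfn genes and the Ifi200 family. Gbp4, Gbp8 and Gbp9 have annotated 5' ends within 500 bp of each other and share 1 peak, at 0.912, 1.23, 0.823 and 0.439, so the 20 open genes stand for 18 separate peak sites in replicate 1. Slfn3, a Schlafen gene, had 0.641, 0.526, 0.502 and 0.404. Isg15, a ubiquitin-like modifier, was low at 0.344, 0.206 and 0.259 in replicates 1 to 3, and Ifit1, an RNA-binding antiviral protein, at 0.267, 0.219 and 0.242. No library had a peak at Ifit3, Oas1a, Iigp1 or Rtp4. A motif of IRF factors, GAAA, any 2 bases and GAAA again on either strand, lay between 100 bases before and 50 bases after the 5' end at 9 of the 20 open list members (45%), at 16 of the 248 other members (6.45%) at 1.82% of CpG-poor promoters outside the list without any peak, and at 1.52% of all coding promoters. Of the 7 list promoters without any peak 2 held it (28.6%), and in the wider window from 250 before to 50 after, 5 of these 7 did (71.4%) against 9 of the 20 open ones (45%). In the promoters below capitals mark that motif.
Ifit1 (chr19:34640711-34640891, plus strand): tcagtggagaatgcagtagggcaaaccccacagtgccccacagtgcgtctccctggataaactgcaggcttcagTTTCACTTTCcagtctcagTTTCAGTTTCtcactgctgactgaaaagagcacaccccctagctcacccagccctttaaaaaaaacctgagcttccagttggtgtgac
Isg15 (chr4:156200798-156200978, minus strand): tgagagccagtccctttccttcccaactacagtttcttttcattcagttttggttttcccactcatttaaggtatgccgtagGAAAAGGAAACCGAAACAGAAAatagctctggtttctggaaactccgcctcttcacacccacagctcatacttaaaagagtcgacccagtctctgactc
Trim30a (chr7:104465173-104465353, minus strand): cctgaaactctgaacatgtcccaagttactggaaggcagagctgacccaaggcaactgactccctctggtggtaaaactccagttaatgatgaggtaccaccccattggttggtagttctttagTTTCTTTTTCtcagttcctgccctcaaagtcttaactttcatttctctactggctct
Overlapping matches at Isg15 form 1 run of capitals, and Ifit1 holds 2 separate matches. Of the 25 members with such a motif, a footprint lay over it at 10 in replicate 1, 1 in replicate 2, 6 in replicate 3 and 0 in replicate 4. Trim21, an antibody receptor and ubiquitin ligase gene, was the only one with a footprint there in each of replicates 1 to 3. Footprints were counted only where a library had a peak, which in replicate 4 held for Trim12c, Trim21 and Ncf1 alone.

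MHC class II genes present peptides to CD4 T cells and are mainly known from B cells, dendritic cells and macrophages. Of this list 7 of 11 CpG-poor promoters were open (63.6%). H2-Ab1 had 1.16, 1.48, 1.89 and 1.58, H2-Eb1 had 1.42, 1.20 and 1.65 with no peak in replicate 4, and H2-Aa had 0.949, 1.12 and 1.31 with none in replicate 4. H2-DMb2, a peptide-loading chain, had 0.425, 0.438, 0.911 and 1.19. Replicates 3 and 4 were the higher pair at H2-Ab1 and H2-DMb2 without overlap, as they were for the summed B cell markers, and whether the B cell markers and these heights move together for 1 reason was not tested. H2-Ob, which inhibits peptide loading, went the other way, with 0.795, 0.760, 0.355 and 0.579. In replicates 1 and 2 alone the count was also 7 of 11.

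Of B cell genes 6 of 18 were open (33.3%), at low heights. Bank1, a B cell scaffold protein, had 0.0705, 0.128, 0.304 and 0.579, Blk, a B lymphoid Src kinase, had 0.0837, 0.0943, 0.321 and 0.439, and Ms4a1 (CD20) had 0.0661, 0.0453 and 0.273 with no peak in replicate 4. For each, the values in replicates 1 and 2 lay below those of every other library with a peak. Btla, an inhibitory receptor that T cells also carry, was even at 0.328, 0.325 and 0.345. Of myeloid genes 3 of 26 were open, with Lyz2, lysozyme of macrophages, at 0.154, 0.0868 and 0.137. Csf1r, Spi1, Mpo and S100a8 had no peak.

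Lists from other tissues had few or no open promoters. At the 4.61% of all CpG-poor promoters, lists of this size would also hold few or none. These counts therefore do not set the lists apart from other CpG-poor promoters. None of 21 CpG-poor hepatocyte and gut genes and none of 13 erythroid and platelet genes was open, and of 13 muscle and skin genes only Ckm, muscle creatine kinase, was, with its peak centred at -575.5 bp, toward the CpG-rich start of Klc3. Of 1111 CpG-poor olfactory receptor genes 4 were open (0.360%), at 0.251 (Olfr557), 0.150 (Olfr433), 0.117 (Olfr15) and 0.104 (Olfr525) in replicate 1, and of 325 vomeronasal receptor genes none was. Without these 2 families 264 of 4376 CpG-poor promoters were open (6.03%). Lymphocyte transcription factor genes were a different case: only 3 of 38 were CpG-poor by the GENCODE 5' end, Ets1 and Stat4 among them, none of these was open, and 27 of the 35 CpG-rich ones were.

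**Figure D5:**
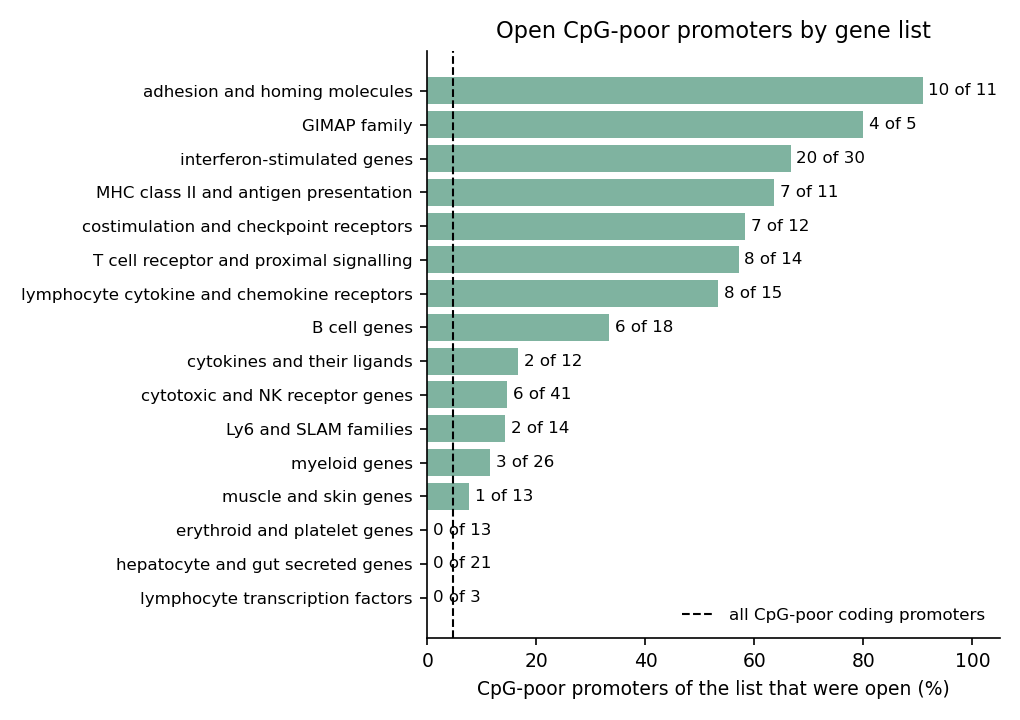
Share of the CpG-poor promoters of each gene list that were open (x axis, percent), with counts beside the bars and a dashed line at the 4.61% of all CpG-poor coding promoters. Adhesion molecules reach 10 of 11, and the hepatocyte, erythroid and lymphocyte transcription factor lists have 0 of 21, 0 of 13 and 0 of 3.

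Another member started within 100 kb of 80 members (29.9%), or of 74 (27.6%) when members on the same peak were not counted as neighbours. A member lay that near to 4.57% of CpG-poor promoters without any peak and to 5.24% of open CpG-rich promoters. In all, 11 chains of at least 3 members, each no more than 100 kb from the next, held 48 members. Each span below runs from its first to its last member, so its share of members is high by construction. On chromosome 7, Trim5, Trim12a, Trim12c, Trim30b, Trim30c, Trim30a and Trim30d, antiviral TRIM genes, made up 7 of the 8 CpG-poor promoters of a 219.8 kb span (104288094 to 104507849). Their mean relative heights, with no peak counted as 0, ran from 0.0572 to 0.588. On chromosome 17, 7 of 10 CpG-poor promoters between 34092340 and 34354822 were members, all but Btnl2 of the class II list. The Gimap chain on chromosome 6 held 7 members on 5 peak sites in 194.3 kb, including Tmem176a and Tmem176b, and a Gbp chain on chromosome 5 held 6 members on 3 peak sites in 154.2 kb. Trim12c (0.760, 0.632, 0.488 and 0.474) was the highest of its chain, and Trim30d (0.0639, 0.0491 and 0.116 in replicates 1 to 3) the lowest, so neighbours differed in height.

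Members with the most footprints were not always the highest. Summed over libraries, Arhgdib, a GDP dissociation inhibitor of blood cells, had 28 (12, 1, 15 and 0 in replicates 1 to 4) at a mean relative height of 0.598 ± 0.194, and Traf3ip3 had 25 (4, 7, 12 and 2). Btla had 20 (10, 7, 3 and 0) at 0.332 ± 0.011 over 3 libraries. The numbers for 1 promoter differed widely between libraries: Arhgdib had 1 footprint in replicate 2 and 15 in replicate 3. Footprints were counted over whole peaks, and the summed peak width at Arhgdib was 1300, 380, 1020 and 93 bp in replicates 1 to 4. Among members called in all 4 libraries, Gimap3, with 4 CpG, had 2, 7, 8 and 0 footprints, and Nckap1l, a Hem1 subunit of the actin-regulating WAVE complex, with 14 CpG, had 4, 4, 4 and 1.

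Sequence words differed between open and unopened CpG-poor promoters. In the window from 250 bases before to 50 after the 5' end, on either strand, the ETS word AGGAAGT was present at 29.5% of members, 11.8% of CpG-poor promoters without any peak, 8.21% of open CpG-rich promoters and 9.31% of all coding promoters. The RUNX word TGTGGT was present at 34.7%, 22.4%, 11.7% and 15.5% in the same order, and the KLF word CCNCNCCC at 39.6%, 23.3%, 69.2% and 54.8%. The GC box GGGCGG, which itself contains a CpG, was present at 15.7%, 4.43%, 66.9% and 43.8%. The CCAAT word was less frequent at members, 28.4%, than at unopened CpG-poor promoters, 41.3%, or all coding promoters, 38.6%. Members were richer in G and C (median 47.9%) than unopened CpG-poor promoters (43.2%), and had a median of 10 CpG against 6. TATAAA on the gene's strand, starting 40 to 20 bases before the 5' end, was found at 1 member (0.373%), Ccl4, at 5.91% of CpG-poor promoters without a peak and at 2.48% of all. These shares describe letters in a window, the classes differ in base composition, and a word is not a bound site. Ccl4, a chemokine of activated cytotoxic cells, had 0.414, 0.360 and 0.287 in replicates 1 to 3. In replicate 1 its peak was 200 bp wide, centred at -183.5 bp, and did not reach the TATA word. Capitals in its promoter mark that word.
Ccl4 (chr11:83662424-83662604, plus strand): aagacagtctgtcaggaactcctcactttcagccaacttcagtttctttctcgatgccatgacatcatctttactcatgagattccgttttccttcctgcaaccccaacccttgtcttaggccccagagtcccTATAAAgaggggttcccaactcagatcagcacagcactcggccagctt

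Inside footprints the same words were counted with 5 bases added on each side, beside equal-sized stretches 100 bp to each side. The RUNX word lay in 4.99%, 4.91% and 3.27% of member footprints in replicates 1 to 3 against 1.95%, 2.61% and 1.88% of flanks. The KLF word lay in 6.60%, 8.72% and 5.24% against 2.56%, 1.82% and 2.21%, and the CTCF word (CCNCNAG followed directly by NNGGC) in 2.16%, 2.69% and 2.13% against 0.0674%, 0.0792% and 0.164%. The ETS word differed less, at 1.48%, 2.06% and 1.96% against 1.28%, 1.35% and 1.15%. CCAAT was no more frequent inside footprints (1.89%, 1.43% and 1.80%) than beside them (2.22%, 2.38% and 2.78%). Replicate 4 had 24 member footprints, too few for shares.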

How the data were processed

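DNase-seq peaks, footprints and cut-rate intervals of 4 libraries were analysed. Per the labels and the libraries' description files, reads were aligned to mm10; no caller or version is named (not given in the sources used here). Each deposited peak list gives a height (signal) that is depth-normalised: in the longer list of each library 100% of low heights were whole multiples of 1 step within 0.05, which gave the tag totals. The authors deposited footprints at a p-value (false discovery rate) threshold of 0.01 and cut-rate intervals below 0.05. Of the 2 peak lists deposited for each library the longer was used.

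CpG and 5' ends came from the RefSeq GRCm38.p6 sequence and GENCODE vM21. Peaks had to overlap the window by 1 bp. A footprint counted where its midpoint lay in a member's peak. Groups of promoters were compared within each library and the 4 differences tested by exact two-sided sign-flip permutation. An exact p of 0.125, the smallest, is 0.15 after Benjamini-Hochberg adjustment over the 6 measures, so no difference could pass 0.05. An exact p of 0.125 means only that all 4 differences had the same sign, whatever their spread, and the p-values cover these libraries only. Heights of 0 stand for no peak in rankings and in the range of means given for the chain of Trim genes. Other means in the text use libraries with a peak where replicate 4 had none.

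Named genes were the 15 highest by mean relative height, up to 5 highest members of each of 16 lists, the 6 with most footprints, those with the fewest and most CpG among members called in all 4 libraries, those called in replicates 3 and 4 but not in 1 or 2, and those at the limits of the rule; olfactory receptor members, chains of neighbours, promoters with an IRF word, list members without a peak and other named members outside these were chosen after their values were seen. A few genes that this rule names are not reported here. The members and lists were chosen with earlier results of these data known. Functions were tested on simulated data. Python 3.11.15, numpy 2.4.6, scipy 1.17.1 and bedtools 2.31.1 were used. Alternatives covered the peak list, number of libraries, CpG limit, window, equal peak numbers, footprint placement, height bins and motif window.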

Additional observations from a re-analysis of the deposited data

How the results depend on the processing

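The number of open CpG-poor promoters was 268 and moved most with the rule. It was 60 when all 4 libraries were needed, 121 below 10 CpG, 444 below 20 CpG, 74 with an equal number of highest peaks in each library, and 742 when a peak at any annotated start of the gene counted. Leaving out 1 library and needing the other 3 gave 60 to 266, with 266 only without replicate 4 and 60, 62 and 60 without replicates 1, 2 and 3. It was 180 with the shorter peak lists, 320 with 2 libraries, 305 in replicates 1 and 2 only, and 231 without promoters that have another start nearby, an alternative chosen after seeing the data. Of the 6 differences from CpG-rich promoters, 5 kept their direction in every alternative run for them: log2 height between -2.23 and -1.02, width between -135 and -31.8 bp, footprint share between -25.0 and -7.55 points, footprints per kb between -5.79 and -1.98, and distance between 12.4 and 174.9 bp. Log2 height was -1.15, -1.12 and -1.06 without replicates 1, 2 and 3 and -2.07 without replicate 4. Footprint share at matched height reversed, to 0.857 points, with replicates 1 and 2 alone, an alternative added once the values were known, and lay between -7.62 and -1.47 points in the other 6 alternatives run for it. None could pass a threshold of 0.05, since the smallest exact p is 0.125 with 4 libraries and 0.25 with 3. In the narrower motif window the CCAAT difference between members and unopened CpG-poor promoters was -6.48 points in place of -13.0. Gene list counts in replicates 1 and 2 only, also chosen after seeing the data, lay within 1.5 times those given. Replicate 4, the shallowest library, had a peak at 62 members, and why the other members had none there was not tested.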
